A study of Hydra vulgaris with 32 samples.

Results

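The loci described here are 97 of the 25879 loci counted in a Hydra RNA sequencing experiment, and they share a slow disappearance. They were chosen by their level in an authors' normalized table, in which 14792 loci have a value. Each had a mean normalized signal of at least 130 in the untreated groups of days 4 and 11. Each was at most 10% of the day 11 control in the day 11 hydroxyurea group, in the heat shock group without its replicate B and in the colchicine group. Each was still above 25% of its control 4 days after hydroxyurea treatment began. A total of 397 loci met all of these conditions other than the last, of which 152 had at most 10% of control on day 4 and 148 lay between 10% and 25%. The rule used the libraries of days 4 and 11, the colchicine libraries and 3 of heat shock (replicates A, C and D), so their values describe the loci and no test is made on them. The hydroxyurea and control libraries of days 5 and 7 and heat shock replicate B played no part in the choice, apart from the day 11 control mean against which replicate B is expressed.

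All animals belonged to the heat-sensitive Hydra mutant strain Sf-1 and were left unfed from the beginning of the experiment. Hydroxyurea, which blocks DNA synthesis, was given at 10 mM for 3 periods of 24 h with 12 h pauses, and animals were sampled on days 4, 5, 7 and 11 (3 libraries each). Heat shock was 1 period of 62 h at 28 °C (4 libraries), and colchicine, a microtubule poison, was applied once at 0.4% over 8 h (3 libraries). Heat shock and colchicine animals were sampled 9 days after treatment began and had been starved for 11 days. Untreated controls were sampled on days 4, 5 and 7 (3 libraries each) and on day 11 (4 libraries), the last being the group starved as long as the heat shock and colchicine animals. PolyA RNA came from the central body column, with the apical and basal regions removed, so each library is a mixture of all cell types of that region, and fewer cells of a type cannot be told apart from less RNA per cell. The labels do not say how many animals went into a library or whether replicates came from separate cultures, so p-values measure the spread between these libraries, which may be technical.

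Hydra tissue holds slowly cycling epithelial stem cells and fast cycling interstitial stem cells. Interstitial stem cells give rise to nerve cells, to stinging cells (nematocytes), to gland cells and to germ cells. Agents that kill or block cycling cells deplete the interstitial lineage, and differentiated cells that have already left the cycle are lost only as they are used up or age. In Sf-1, heat removes the interstitial cells without a drug. The loci carry only the authors' numbers: 0 of the identifiers matched a table of 28925 RefSeq genes of the assembly HydraT2T_AEP. Gene functions, cell type markers and sequences are therefore not given, and the name "lost late" could be checked only against levels over time.

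Depth was 23.6 to 36.6 M counts in 30 libraries and 15.2 and 13.1 M in colchicine replicates B and C. The replicate A library was the deepest of its group in all 10 groups. Heat shock replicate B stood apart from the other heat shock libraries at these loci, and results that rest on the fit of all libraries are given with and without it. Levels are CPM, which are read counts divided by the TMM-scaled library total in M (mega) counts. A percent of control is the CPM of a locus over its mean in the control libraries of the same day, or of day 11 for heat shock and colchicine. Lengths of the sequences are not given, so levels are compared between groups and not between loci.

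Together the 97 loci made up 0.470% ± 0.0795 of all counts in hydroxyurea animals on day 4, against 1.30% ± 0.0220 in their controls (SD, n = 3 each). Their summed level in hydroxyurea animals was 4814 ± 636, 2083 ± 470, 227 ± 29.0 and 171 ± 7.18 CPM (SD, n = 3 each) at the 4 sampling times. Control animals had 12227 ± 902, 11340 ± 1488 and 9583 ± 1570 CPM on days 4, 5 and 7 (SD, n = 3 each) and 11356 ± 1973 CPM on day 11 (SD, n = 4). The treated sum was lower at each later day, and the largest step in proportion lay between days 5 and 7. The sampling days are not evenly spaced, so these steps span unlike times and are not rates. A single locus, loc11404, gave 3977 of the 11340 CPM in day 5 controls, so the sum says little about the others.

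The median locus was at 41.3% of control on day 4 of hydroxyurea treatment, with a range of 25.1% to 117%. It was at 21.2% on day 5 (5.18% to 61.2%), 1.97% on day 7 (0% to 21.4%) and 1.53% on day 11 (0% to 11.0%). The median of all 17107 loci tested lay between 100% and 103% on these days. The word late is relative: on day 4 the treated mean was already below the control mean at 94 of the 97 loci, and only 11 were at 75% of control or more. The 3 loci at or above their control on day 4 were loc07520 (117%), loc18392 (111%) and loc24768 (108%).

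The rule fixes that each locus declined between days 4 and 11, but not where in between. From day 4 to day 5 the percent of control was lower at 96 of 97 loci, loc02033 being the exception, and at 69 every day 5 library was below every day 4 library. From day 5 to day 7 it was lower at all 97, and at 93 the libraries of the 2 days did not overlap. From day 7 to day 11 it was lower at 75, and at 30 the libraries did not overlap. The same counts between days were not made over all loci tested, so these have no background and are descriptions. The median locus kept 42.6% of its day 4 treated level on day 5, and 8.11% of its day 5 treated level on day 7. The time from day 5 to day 7 is the longer of these, so the values are not rates.

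**Figure D1:**
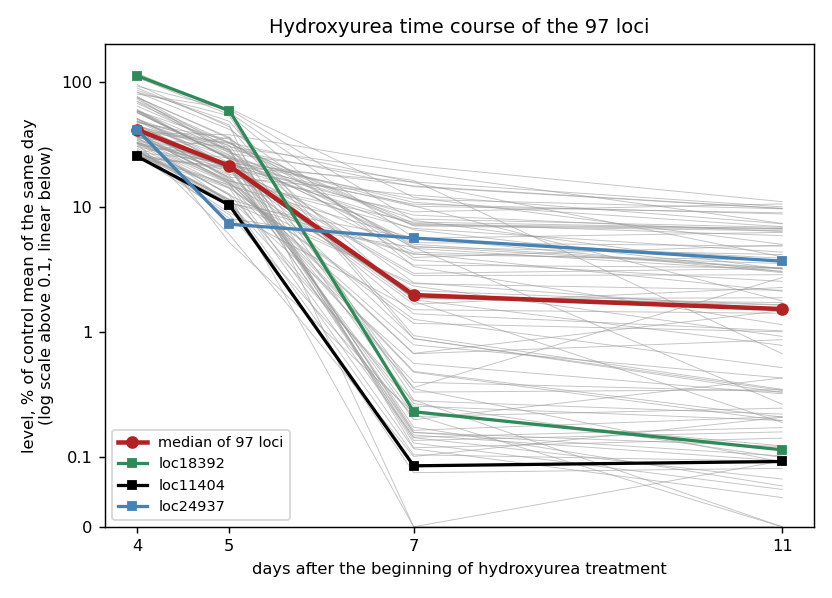
Level of each of the 97 loci in hydroxyurea animals (vertical axis, percent of the control mean of the same day, log scale above 0.1 and linear below) against days after treatment began (horizontal axis); grey lines are loci, the red line their median. The median passes 41.3%, 21.2%, 1.97% and 1.53%; loc18392 stays at 58.7% on day 5 and reaches 0.231% on day 7, loc11404 goes to 0.0877%, and loc24937 is already at 7.27% on day 5 and changes little afterwards.

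On day 5, which the rule did not use, 82 of the 97 loci were called lower than in control animals by edgeR's quasi-likelihood test (Benjamini-Hochberg adjusted p under 0.05 over all loci tested) and 0 were called higher. Of all loci tested, 2221 of 17107 were called lower, or 13%. Their log2 fold changes had a median of -2.24 and ran from -4.24 to -0.70, against a median of 0.00 for all loci tested. At 96 of the 97 every hydroxyurea library was below every control library, which held for 22.5% of the loci tested. Hydroxyurea replicates A, B and C had medians of 25.2%, 24.4% and 14.8% of control. Without hydroxyurea day 5 replicate A, B or C alone, 79, 72 and 68 of the 97 loci were called. Without the replicate C libraries of every group, 42 of the 97 and 1436 of 17438 loci were called. With heat shock replicate B left out of the fit, 91 of the 97 and 2421 of 17141 loci were called. With only the compared groups fitted, 93 of the 97 and 2707 of 15272 loci were called, and by limma voom 96 of the 97 and 3338 of 17107. Whether a locus was called on day 5 thus depended on the fit, and a locus not called was not shown to be unchanged.

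Loci differed widely on day 5. The lowest was loc16534, with 0.459, 0.339 and 0.292 CPM in hydroxyurea animals, against 6.08, 6.44 and 8.51 CPM in controls. The groups were far apart, and the locus fell to 5.18% of control (log2 fold change -4.24 ± 0.69 SE, edgeR adjusted p = 3.38e-05). Close to it were loc25356 at 6.01% and loc24937 at 7.27% of control, with edgeR adjusted p of 5.54e-06 and 3.64e-08. At the other end, loc01949 had 3.84, 3.31 and 2.01 CPM in hydroxyurea animals and 4.37, 5.44 and 5.16 CPM in controls, or 61.2% of control. Every hydroxyurea library was lower than every control library, but the difference was not called (-0.70 ± 0.84, edgeR adjusted p = 0.651). The next highest, loc11852 at 60.0% of control and loc18392 at 58.7%, were not called either, with edgeR adjusted p of 0.421 and 0.593. The place of loc11852 rests on hydroxyurea replicate A: it was at 39.6% without that library.

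The 15 loci not called on day 5 also included loc08399, loc08400, loc09583, loc19748 and loc22521, which are described further down, and loc05325, loc07520, loc07862, loc16846, loc22816, loc24354 and loc24768. All 15 had a negative log2 fold change, as did the other 82. The order of the loci on day 5 resembled that on day 4: over the 97 loci, log2 percent of control had a Pearson r of 0.75 and a Spearman rho of 0.76 between the days. These values describe the loci, which are not independent, and the 2 days share no library.

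On day 7 all 97 loci were called lower in hydroxyurea animals by edgeR, with a highest adjusted p of 0.0214, beside 2450 of all 17107 loci, or 14.3%. Their median log2 fold change was -5.65, from -12.20 to -2.23, against 0.04 for all loci tested. Every treated library lay below every control library at all 97, which held for 23.8% of the loci tested. Leaving out single libraries or letters left 95 to 97 of them called, heat shock replicate B included. By day 7, 39 of the 97 were under 1% of control, 66 were under 5% and 14 were at 10% or more. At 20 loci none of the 3 treated libraries held more than 3 counts. The fitted fold changes of these 20 depend on the prior count, and bounds against a floor of 3 counts per library are given for those named. Where treated libraries did hold a few counts, this floor does not fully cover their counting error.

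The locus with the highest control counts, loc11404, had 438, 473 and 320 CPM in hydroxyurea animals on day 5, against 3098, 4563 and 4270 CPM in controls. On day 7 it had 2.12, 3.57 and 3.19 CPM in hydroxyurea animals, against 2522, 3837 and 3773 CPM in controls. It was lower in every treated library on both days, at 10.3% of control on day 5 and 0.0877% on day 7, which is 1141-fold lower. The log2 fold changes were -3.28 ± 0.91 (edgeR adjusted p = 0.00921) and -10.17 ± 1.24 (3.06e-07). On day 4, where it lay just inside the rule, it had 1077, 951 and 992 CPM in hydroxyurea animals and 3367, 4488 and 4100 CPM in controls.

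Next in control counts was loc17484, which had 91.1, 77.0 and 54.2 CPM in hydroxyurea animals on day 5, against 418, 523 and 519 CPM in controls. On day 7 it had 0.474, 0.657 and 0.434 CPM in hydroxyurea animals, against 302, 396 and 392 CPM in controls. It fell to 15.2% and then 0.143% of control (edgeR adjusted p = 0.0141 and 2.69e-07). At loc08399, hydroxyurea animals had 119, 128 and 74.8 CPM on day 5, against 346, 447 and 446 CPM in controls, and 0.669, 0.657 and 0.473 CPM on day 7, against 264, 416 and 416 CPM in controls. The difference was not called on day 5 in the fit of all libraries (26.0% of control, edgeR adjusted p = 0.0760), though every hydroxyurea library was below every control library. It was called on day 7 (0.164%, edgeR adjusted p = 3.32e-07). The same order held at loc19748, with 172, 138 and 87.6 CPM on day 5 in hydroxyurea animals against 324, 377 and 407 CPM in controls, and 1.14, 0.451 and 1.42 CPM on day 7 against 237, 296 and 321 CPM (edgeR adjusted p = 0.244 and 4.73e-06).

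A higher percentage was left on day 7 at loc21928 and loc20181. At loc21928, hydroxyurea animals had 108, 110 and 76.5 CPM on day 5, against 332, 410 and 450 CPM in controls, and 17.6, 20.8 and 17.3 CPM on day 7, against 300.2, 419 and 389 CPM in controls. Both differences were called (edgeR adjusted p = 0.00149 and 1.15e-07), but the treated level on day 7 was 5.03% of control, where loc08399 had 0.164%. At loc20181, hydroxyurea animals had 9.48, 7.43 and 8.48 CPM on day 7, against 353, 423 and 408 CPM in controls, or 2.14% (edgeR adjusted p = 6.50e-09). That value mixes unlike sequences. A minor sequence of loc20181 had 3.29 CPM in hydroxyurea animals and 11.5 CPM in controls on day 7, or 28.6%. Its sequences with 97.4, 68.7 and 45.8 CPM in controls were at 0.359%, 0.385% and 0.498%. The treated libraries of a day lay close together at both loci.

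**Figure D2:**
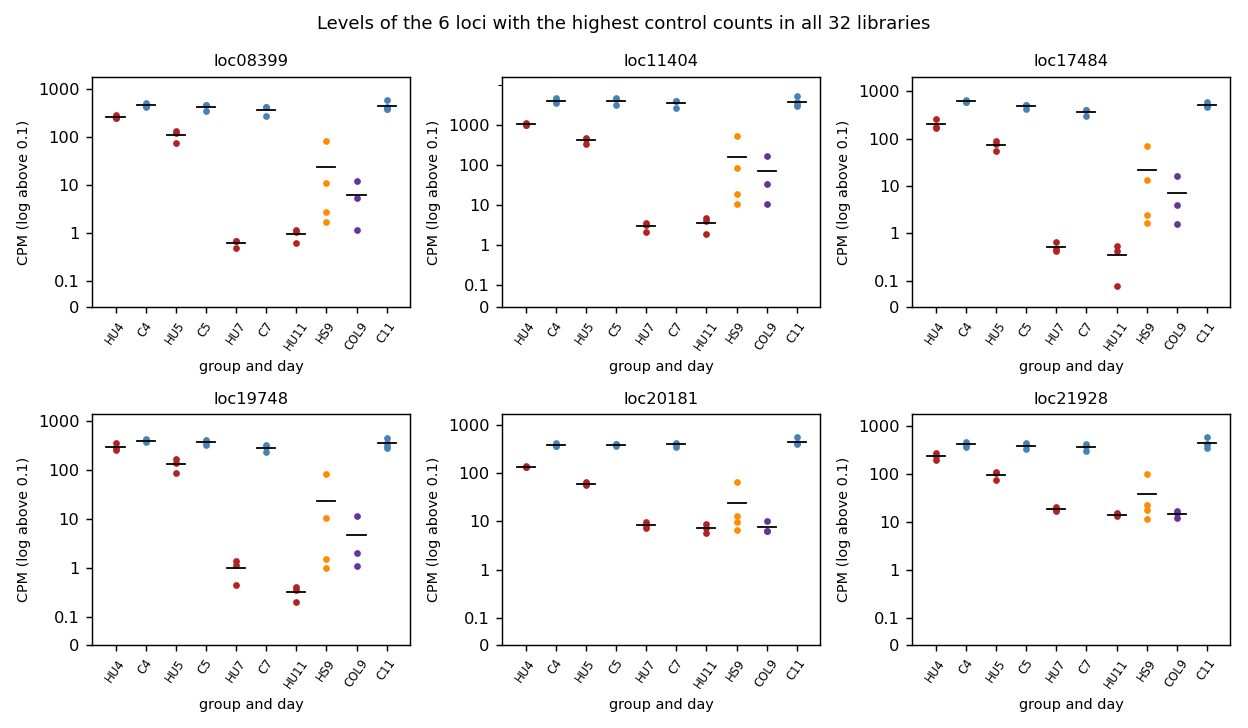
CPM (vertical axis, log scale above 0.1 and linear below) of the 6 loci with the highest control counts in all 32 libraries, by group and day (horizontal axis: HU hydroxyurea in red, HS heat shock in orange, COL colchicine in purple, C control in blue; points are libraries, bars are means). At loc08399, loc11404, loc17484 and loc19748 the hydroxyurea means of day 7 are at 0.0877% to 0.353% of control. On that day loc20181 and loc21928 are at 2.14% and 5.03%. A single heat shock library, replicate B, is high in all 6.

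The change between days 5 and 7 was itself tested, as the hydroxyurea effect on day 7 minus that on day 5. edgeR called it lower at 54 of the 97 loci and higher at 0, against 105 lower of 17107 loci, or 0.614%, and 4 higher. In this fit the difference was negative at all 97 loci, with a median log2 fold change of -3.43 and a range of -9.46 to -0.37, against 0.02 for all loci tested, of which 47.9% were negative. At an unadjusted p under 0.05, 85 of the 97 and 635 of all loci were lower. The calls depended on few libraries: 0 loci passed without the replicate A libraries, without the replicate C libraries, or without any 1 of the 3 hydroxyurea libraries of day 7, although 77 to 84 of the 97 then had an unadjusted p under 0.05. With heat shock replicate B left out of the fit, 77 of the 97 and 239 of all loci were called. With the replicate letter as a block in every group, 41 of the 97 and 80 of all loci were called.

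The 54 loci made up 51.4% of the 105 called in the whole table and 55.7% of the 97. Of the 148 loci between 10% and 25% of control on day 4, 37 were called, or 35.2% of the 105 and 25.0% of the 148. Of the 152 at or below 10% on day 4, 2 were called, or 1.90% of the 105 and 1.32% of the 152. The remaining 12 lay outside these lists. The medians over the loci of these lists on days 4, 5, 7 and 11 were 16.5%, 8.59%, 1.41% and 0.938% of control for the 148, and 3.80%, 1.99%, 0.423% and 0.405% for the 152. No test compared the lists. They were cut on the day 4 level, and loci already low on day 5 had less room to fall further. The shares called therefore partly follow from how the lists were made. The 2 loci just outside the limit on day 4 had values next to those just inside it: loc19950 and loc22434 both had 24.9% of control in the normalized table, against 25.0% for loc13710 and 25.2% for loc11404.

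**Figure D3:**
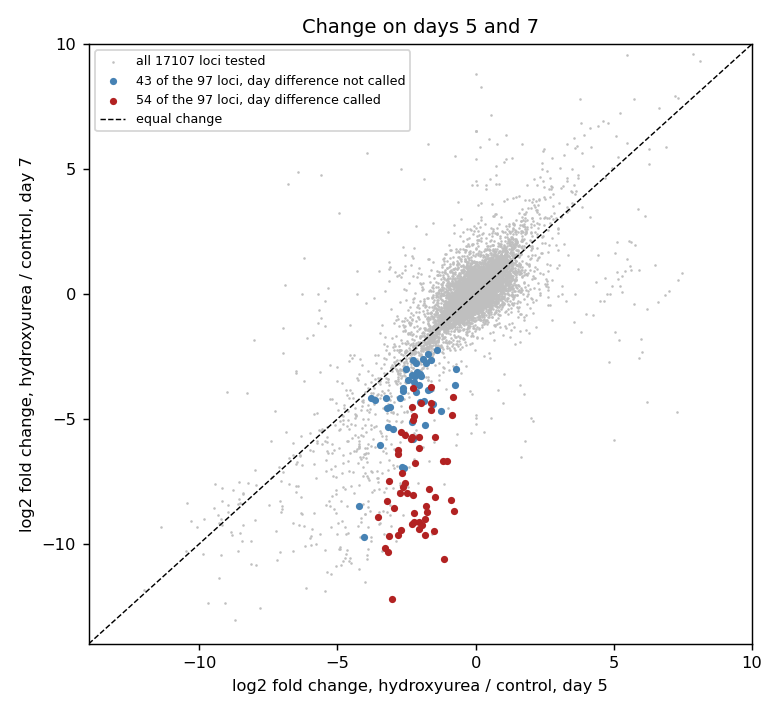
Log2 fold change of hydroxyurea over control on day 7 (vertical axis) against day 5 (horizontal axis) for all 17107 loci tested (grey) and the 97 loci, in red where the day difference was called (54) and in blue where it was not. All 97 lie below the dashed line of equal change, at a median of -2.24 on day 5 and -5.65 on day 7.

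The lowest fitted day differences were those of loc08400, loc16147, loc09583 and loc18392. At the first 3 the fitted value depends on the prior count, so this order is not one of measured size. Measured as percent of control, with the floor of 3 counts per library where it applies, day 7 was 254-fold lower than day 5 at loc18392, at least 147-fold at loc09583, at least 27.7-fold at loc08400 and at least 23.3-fold at loc16147, beside 158-fold at loc08399 and 118-fold at loc11404. At loc08400, hydroxyurea animals had 4.93, 2.08 and 2.85 CPM on day 5, against 6.31, 6.91 and 8.71 CPM in controls. On day 7 no counts were found in any of the 3 hydroxyurea libraries, against 5.95, 6.95 and 7.14 CPM in controls. Measured against the floor of 3 counts per library, loc08400 was at least 61.7-fold lower on day 7 (edgeR adjusted p = 9.60e-07), and the day difference was called at -9.46 ± 1.63 (adjusted p = 0.0141). At loc16147, hydroxyurea animals had 3.61, 2.84 and 2.04 CPM on day 5, against 22.9, 22.6 and 23.2 CPM in controls, and again no counts on day 7, against 19.2, 22.2 and 19.7 CPM in controls. It was at least 188-fold lower on day 7, and its day difference was called (-9.19 ± 1.88, edgeR adjusted p = 0.0202).

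At loc09583, hydroxyurea animals had 27.1, 21.5 and 13.6 CPM on day 5, against 51.2, 59.0 and 67.1 CPM in controls, and 0.0836, 0 and 0.0789 CPM on day 7, against 37.3, 48.4 and 50.7 CPM in controls. No treated library of day 7 held more than 3 counts, and measured against that floor the locus was at least 420-fold lower. It had not been called on day 5 (35.1% of control, edgeR adjusted p = 0.104), and its day difference was called (-8.00 ± 1.44, adjusted p = 0.0141). At loc18392 the decrease came after day 4. On day 4 it had 242, 176 and 177 CPM in hydroxyurea animals and 173, 184 and 177 CPM in controls, and the groups overlapped. On day 5 it had 129, 90.7 and 64.3 CPM in hydroxyurea animals, against 147, 169 and 167 CPM in controls, and on day 7 it had 0.362, 0.123 and 0.394 CPM, against 127, 122 and 131 CPM. It was thus at 58.7% of control on day 5 (not called) and at 0.231% on day 7 (edgeR adjusted p = 4.11e-06), and the day difference was called (-7.93 ± 1.46, adjusted p = 0.0141).

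The loci whose day difference was nearest 0 had reached most of their decrease by day 5. At loc24937, hydroxyurea animals had 0.861, 1.10 and 0.714 CPM on day 5, against 9.77, 14.1 and 12.9 CPM in controls, and 0.557, 1.03 and 0.276 CPM on day 7, against 9.09, 13.9 and 9.96 CPM in controls. The treated libraries of the 2 days overlapped, and the day difference of -0.37 ± 0.54 was not called (edgeR adjusted p = 1.00). At loc03140, hydroxyurea animals had 51.6, 54.5 and 41.5 CPM on day 5, against 229, 333 and 292 CPM in controls, and 29.4, 25.2 and 28.4 CPM on day 7, against 181, 263 and 223 CPM in controls. It fell to 17.3% and 12.4% of control (edgeR adjusted p = 3.98e-07 and 1.96e-08), with a day difference of -0.47 ± 0.41. At loc11118 the corresponding values were 21.0% and 15.8% of control (edgeR adjusted p = 0.000642 and 0.000115), but its control libraries of day 7 spread from 6.16 to 20.8 CPM.

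Controls of day 7 were also compared with controls of day 5, both untreated and unfed. edgeR called 0 of 17107 loci (0%) and 0 of the 97. At an unadjusted p under 0.05, 301 loci differed, 195 lower and 106 higher on day 7. DESeq2 called 5 loci and limma voom 18, of which 1 was among the 97. The fitted log2 differences of the 97 had a median of -0.22 and were negative at 91 of 97, against 51.1% of all loci tested. Without control replicate A of day 7 the median was -0.11 and 78 were negative. In the fit of all libraries, only loc02033 (-1.20) and loc20122 (-0.79) of the 97 had an unadjusted p under 0.05. Both had an edgeR adjusted p of 1.00. That count depended on the fit. With only the compared groups fitted by edgeR, 41 of the 97, all lower on day 7, and 1155 of 15324 loci had an unadjusted p under 0.05. With limma voom these were 15 of the 97 and 1610 of 17107 loci. The median locus on day 7 was at 8.11% of its day 5 CPM in hydroxyurea animals, against 85.7% (43.5% to 113%) in controls.

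Heat shock replicate B held these loci at an intermediate level. The rule required a low mean of the other heat shock libraries (A, C and D) and placed no limit on B, so the distance between B and the other 3 is partly fixed by the choice of loci and is given as a description. Replicate B was the highest of the 4 heat shock libraries at all 97 loci and was below every control library of day 11 at all 97. The share of all loci tested at which either held was not counted. Its median was 18.1% of control, from 8.73% to 67.4%, and 91 loci lay between 10% and 30%. The median of all loci tested in this library was 96.9%. Heat shock replicates A, C and D, which the rule used, had medians of 1.51%, 3.47% and 1.70%. Replicate B exceeded the mean of those 3 by a median of 8.28-fold, from 1.75-fold to 124-fold. The summed level was 184, 1950, 384 and 221 CPM in heat shock replicates A to D, against 10701, 9790, 10686 and 14246 CPM in day 11 control replicates A to D. A single library gives no test, and what set replicate B apart was not tested.

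The loci with the highest share in replicate B were loc22521, loc11852 and loc19766. At loc22521, the 4 heat shock libraries had 0.392, 4.90, 0.342 and 0.473 CPM, against 7.49, 5.66, 7.24 and 8.69 CPM in day 11 controls. Replicate B was at 67.4% of control there, and just below the lowest control library. The other two were both at 33.6%, with 2.41 CPM in replicate B against a control mean of 7.16 ± 1.35 CPM (SD, n = 4) at loc11852, and 3.98 against 11.9 ± 2.18 CPM at loc19766. At loc11404 the heat shock libraries had 10.5, 516, 84.9 and 18.2 CPM, against 3118, 2924, 3736 and 5091 CPM in controls. Across the 97 loci, log2 percent of control in replicate B had a Pearson r of 0.60 and a Spearman rho of 0.63 with that on day 5 of hydroxyurea treatment, as a description of loci measured in libraries that are not shared. For the 97 loci the median of replicate B was close to the 21.2% of hydroxyurea day 5. The lists with lower levels on day 4 were also lower in replicate B, at medians of 12.6% for the 148 loci and 9.33% for the 152. On hydroxyurea day 5 these lists had lower medians, 8.59% and 1.99%, so the closeness did not extend to them.

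**Figure D4:**
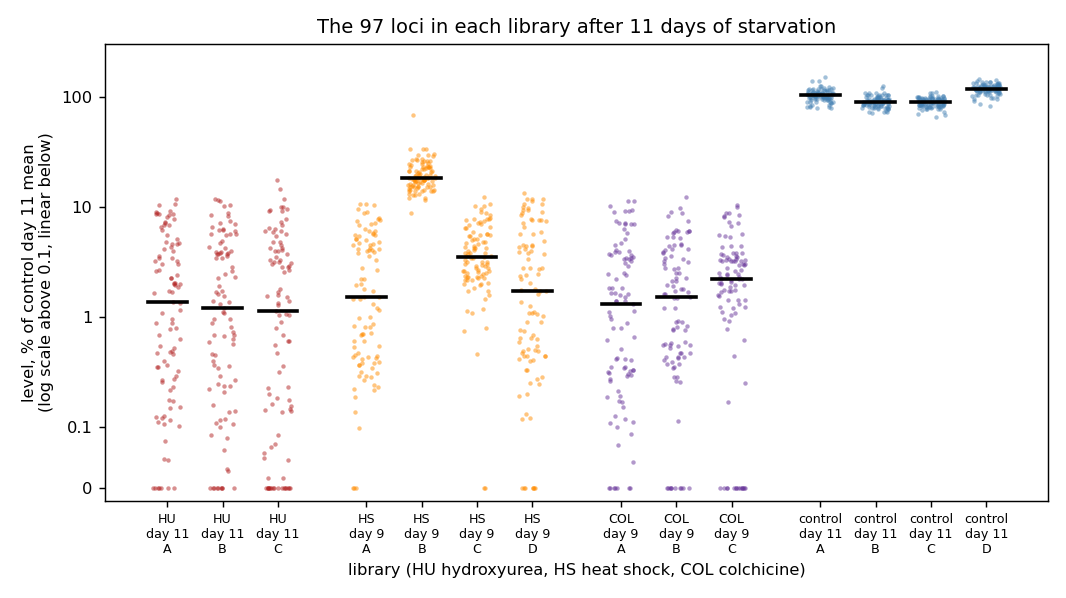
Level of the 97 loci (points, percent of the day 11 control mean, log scale above 0.1 and linear below) in each library of hydroxyurea day 11, heat shock day 9, colchicine day 9 and control day 11 (horizontal axis); bars are medians over loci. Heat shock replicate B has a median of 18.1% and no locus below 8.73%, while the medians of the other treated libraries lie between 1.14% and 3.47%.

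The 97 loci were grouped by the level left on day 7, with limits chosen after the values were seen. The sets therefore differ on day 7 by construction. There were 39 loci under 1% of control, 27 from 1% to under 5%, and 31 at 5% or more. Their medians on day 7 were 0.218%, 2.48% and 8.60%. On day 4 the same 3 sets had medians of 42.4%, 38.8% and 43.7%, on day 5 they had 20.2%, 20.4% and 24.4%, and in heat shock replicate B they had 17.5%, 17.3% and 21.9%. The sets were thus hardly apart on day 4, on day 5 and in replicate B. On day 11 of hydroxyurea treatment their medians were 0.159%, 1.88% and 6.46%, in heat shock replicate A 0.392%, 2.20% and 5.80%, and in colchicine replicate A 0.297%, 2.52% and 3.91%. The medians in these late libraries followed the order of the sets on day 7. The rule limited the late levels from above and the day 4 level from below, so these medians are descriptions.

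Over the 97 loci, the level on day 7 had a Spearman rho of 0.91 with that on day 11 of hydroxyurea treatment, 0.80 with heat shock replicate A, 0.78 with replicate D, 0.68 with replicate C and 0.67 with colchicine replicate A. It was 0.06 with day 4, 0.24 with day 5 and 0.32 with heat shock replicate B. The day 11, heat shock and colchicine percentages share 1 control mean and were limited by the rule, the loci are not independent, and loci near 0 counts are tied, so these are descriptions. Colchicine replicates B and C, the shallowest libraries, gave 0.59 and 0.15. In colchicine replicate C the medians of the 3 sets were 2.01%, 2.46% and 3.24%, so the lowest set was higher there than in colchicine replicate A, and heat shock replicate C had 2.37% for that set. The part of depth in this was not tested. At loc11404, for example, colchicine replicates A, B and C had 10.1, 33.8 and 161 CPM, against 2924 to 5091 CPM in day 11 controls.

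**Figure D5:**
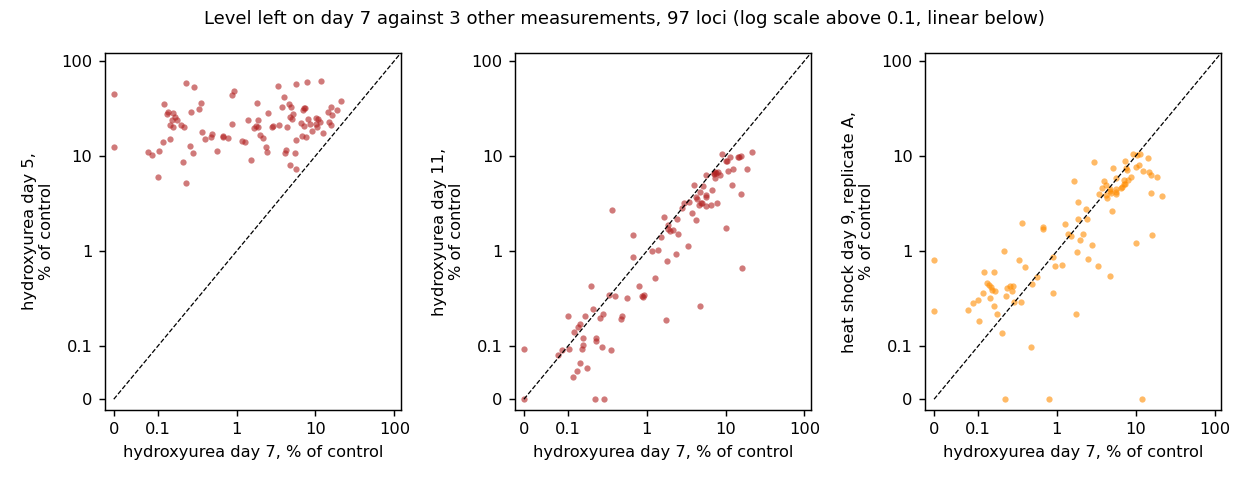
Percent of control of the 97 loci in hydroxyurea animals on day 7 (horizontal axis) against hydroxyurea day 5, hydroxyurea day 11 and heat shock replicate A (vertical axes; all axes log above 0.1 and linear below; the dashed line marks equal values). On day 5 the loci form a flat band between 5.18% and 61.2% whatever their day 7 level, with a Spearman rho of 0.24; on day 11 they follow the line (0.91), as they do more loosely in heat shock replicate A (0.80).

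At the lowest end, 20 loci had at most 3 counts in every hydroxyurea library of day 11, and 6 had no more than 3 in any late library of the 3 treatments other than heat shock replicate B. At loc16534, hydroxyurea animals had 0, 0 and 0.0394 CPM on day 7, against 5.05, 6.44 and 5.96 CPM in controls, at least 53.7-fold lower (edgeR adjusted p = 5.36e-07). At loc25356 the fold was at least 124 (edgeR adjusted p = 1.71e-08). At the upper end, loc20834 had the highest percentage on day 7, 21.4% of control, with 2.74 ± 0.299 CPM in hydroxyurea animals and 12.8 ± 0.453 CPM in controls (SD, n = 3 each). It was picked out after its value was seen.

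The 97 loci hold 425 sequences, from 1 to 30 per locus with a median of 2. A single sequence made up 27 of them, or 27.8%, against 32.4% of the loci tested. The main sequence of a locus held a median of 90.0% of its counts. Of 227 sequences with at least 1 CPM in the controls of days 5 and 7, 193 were under 10% of control in hydroxyurea animals on day 7, and the median was 1.40%. A further 10 were at 25% or more, and 4 of these at 50% or more. These 4 were 1 sequence each of loc11495 (256%), loc20701 (118%), loc21472 (66.8%) and loc17062 (63.1%), with 6.20, 2.20, 0.813 and 3.45 CPM in hydroxyurea animals and 2.42, 1.86, 1.22 and 5.46 CPM in controls. The percentage of a locus can thus differ from that of its main sequence. On day 7 loc11495 was at 4.77% and its main sequence at 0.0507%, and loc17062 was at 5.61% and its main sequence at 1.52%. The filter is on control levels, so sequences low in controls are outside these counts. Of the other 198 sequences, 76 had 3 counts or fewer in the hydroxyurea and control libraries of day 7 together, 90 had a lower mean in hydroxyurea animals and 32 an equal or higher one. Of the 198, 1 reached 1 CPM in hydroxyurea animals on day 7, a sequence of loc10902 with 1.27 CPM and no counts in controls. Reads may have been divided among sequences of a locus, so the values of single sequences are uncertain.

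Locus numbers are the authors' own, and whether consecutive numbers mean neighbouring or related sequences is not stated. There were 3 pairs of consecutive numbers among the 97, formed by loc08398, loc08399 and loc08400 and by loc19748 and loc19749. On day 7 these 5 loci were at 0.158%, 0.164%, 0%, 0.353% and 0.158% of control in hydroxyurea animals, all under 1%. The day difference was called at each of them, with log2 values of -6.91, -7.29, -9.46, -6.64 and -7.21 (edgeR adjusted p = 0.0148, 0.0141, 0.0141, 0.0174 and 0.0170). It was called lower at 54 of the 97 and at 105 of all 17107 loci. No locus was called when hydroxyurea day 7 replicate A, B or C was left out. At loc08400 and loc19749 the log2 value depends on the prior count. Against the floor, day 7 was at least 27.7-fold and 21.8-fold lower than day 5 there. If their sequences resemble each other, the division of reads among them is uncertain.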

How the data were processed

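PolyA RNA of Sf-1 polyps was sequenced in 32 libraries of 10 groups. The labels' protocols name Qiagen RNeasy extraction and directional Illumina TruSeq libraries. Per the submitters' processing notes, cutadapt 1.11, Salmon 0.7.2 and DESeq2 were used; their settings, the sequence set and the treatment of reads matching several sequences are not given in the sources used here. The authors deposited whole-number counts for 79774 sequences. The authors also deposited a normalized signal for 31594 of them, which equals the count times 1 constant per library (0.669 to 2.80).

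Both tables were summed per locus number. The signal table was used only to apply the rule. Counts were tested with edgeR 4.0.16 (R 4.3.3; quasi-likelihood F-test, robust, TMM factors 0.757 to 1.20, filterByExpr with its default minimum of 10 counts), with all libraries and 1 mean per group. Benjamini-Hochberg adjustment ran over 17107 loci, the threshold was 0.05, and all 97 loci passed the filter. Standard errors were derived from the F statistic and are approximate. The tests were checked on data with known changes. DESeq2 1.42.0, limma voom 3.58.1 with sample quality weights, other scalings and filters, the compared groups alone, only sequences of the signal table, a replicate block and leaving out libraries were alternatives; the fit without heat shock replicate B was chosen after seeing the data. Replicates differed beyond sampling noise (chi-square per degree of freedom at least 13.4). A count of 0 allows up to 3 counts, or 0.0698 to 0.303 CPM; this allowance is for counting error alone, because the reads carry no molecular identifiers.

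Groups follow the label days; titles carry days 3, 4, 6 and 10 in place of 4, 5, 7 and 11, and 10 for heat shock and colchicine. Replicate letters come from the titles. Same-letter hydroxyurea and control libraries deviated together on day 7 (r of 0.133 to 0.359), and r was -0.04 to 0.10 on day 5. So few values do not settle whether letters pair the libraries on day 5. The main fit has no replicate block, and results with a block are given as an alternative.

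Named loci are the 6 with the highest control CPM on days 5 and 7; the 4 with the lowest and the 3 with the smallest day difference; the 3 with the highest heat shock replicate B ratio; the 3 highest and 3 lowest on day 5; and those nearest the day 4 limit. Others named were chosen after their values were seen. The loci, lists and tests were chosen with earlier results of these data known.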

Additional observations from a re-analysis of the deposited data

Results flagged for a closer look

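Heat shock replicate B was far from the other 3 heat shock libraries. The rule chose loci that were low in those 3 and left replicate B out, so the ratios below partly follow from the choice and are descriptions, not tests. The gap between it and the next library, divided by the range of the group, was 0.887 for the summed level of the 97 loci, above the Dixon limit for groups of 4. The same ratio passed the limit at loc01949 (1.000), loc16534 (0.975), loc22521 (0.971), loc18392 (0.914), loc20181 (0.891), loc08400 (0.887), loc09583 (0.886), loc08399 (0.884), loc19748 (0.881), loc21928 (0.881), loc25356 (0.854), loc11404 (0.853), loc16147 (0.849), loc03140 (0.848), loc19766 (0.846) and loc17484 (0.834). In the day 11 controls, replicate D was the high library at loc20181 (0.870) and loc08399 (0.840), in a group that the rule also used. Of 42 such ratios, 19 passed the limit, 17 in heat shock and 2 in controls. Chance alone gives about 2.1 for loci chosen without these libraries. That number is no measure here, because the rule used these groups and 3 loci were named for a high replicate B ratio. All heat shock ratios come from the same library and are not independent.

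edgeR called the hydroxyurea effect lower on day 7 than on day 5 at 10 of the named loci. It did so at 105 of all 17107 loci, or 0.614%. Loci loc08400, loc16147, loc09583 and loc18392 were named for having the lowest day difference. Their calls therefore partly follow from the choice and are descriptions. No locus was called when hydroxyurea day 7 replicate A, B or C was left out. The log2 differences were -9.46 at loc08400, -9.19 at loc16147, -8.00 at loc09583, -7.93 at loc18392, -7.29 at loc08399, -6.89 at loc11404, -6.73 at loc17484, -6.64 at loc19748, -2.84 at loc20181 and -2.76 at loc13710. All are lower on day 7. At loc08400, loc16147 and loc09583 the value depends on the prior count and is not a measured size.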

How the results depend on the processing

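Called lower on day 5 were 3338 loci by voom, and 1406 to 2421 (members 42 to 91) when libraries were left out; on day 7 voom called 3727, against 1691 to 2758. For the difference between days 7 and 5, 43 loci (27 of the 97) were called with no filter, 367 (82) with only the compared groups fitted, 192 by DESeq2 and 353 by voom, against 0 to 239 (0 to 77) when libraries were left out. That count was 0 without replicate A, without replicate C and without hydroxyurea day 7 replicate A, B or C, where 637, 508, 625, 520 and 584 loci were lower at an unadjusted p under 0.05. Between control days 7 and 5, 1 locus was called with only the compared groups fitted, 5 by DESeq2 and 18 by voom (1 of the 97). DESeq2 called 71, 90 and 63 of the 97 on day 5, on day 7 and for the day difference, with no adjusted p for 6. The cause was not tested. With the replicate block, 2401, 2646, 80 and 0 loci and 82, 97, 41 and 0 of the 97 were called; on day 7 all 97 were called with and without it. On days 5 and 7 all 97 were negative under every alternative run; the day difference was positive at loc18894 (0.15) without replicate B, and the control difference was negative at 78 to 96. The rule gave 97 loci, 93 with TMM-scaled counts (all among the 97), 80 with heat shock replicate B included (all among the 97), and 70 to 136 under other limits and left-out libraries. Of 280 recomputed percentages of named loci, 275 moved by less than the SD. Depth limits loci at or under 3 counts per library.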
